A study of Mus musculus with 21 samples.

Results

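The genes described here are 8 mouse genes of lipoprotein assembly and transport, Apoa1, Apoa2, Apoa4, Apob, Apoc2, Apoe, Apom and Mttp. They were picked by gene symbol from deposited tables of 78317 gene rows. The row of the largest total count was taken where a symbol had several. The rule used no fold change or test, but the 8 genes were chosen with earlier results of these data known. All 8 passed the filter on low counts and were among the 18901 genes tested. Lipoproteins are particles that carry triglyceride and cholesterol in plasma. Apolipoprotein B is their large structural protein, which microsomal triglyceride transfer protein (the product of Mttp) loads with lipid in the endoplasmic reticulum, and the small apolipoproteins attach later and exchange between particles. In the mouse embryo the visceral endoderm of the yolk sac makes and secretes such particles before the liver takes over.

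RNA was sequenced in 21 libraries, 3 for each of 7 groups, all from E14, an established line of mouse ES (embryonic stem) cells. In 3 groups the cells received pyridoxine, which is vitamin B6 (VB6 below), at 20 µM for 3, 5 or 7 days. In 3 others they received vehicle for 3, 5 or 7 days, and the last group is ES cells with neither. The title of the series names endoderm differentiation as the outcome of interest, and the sources used here do not state which medium or factor set differentiation off. No label says that replicates are separate cultures, so the p-values measure the spread between these libraries, which may be technical. All groups come from the same line, so nothing here speaks for other lines or for embryos.

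Libraries held between 15882380 and 21629730 expected counts. The vehicle day 5 and VB6 day 7 libraries stood apart from the other 15 before any gene was considered. The fragment length implied by the deposited values averaged 266 ± 7.77 nt for VB6 at day 7 and 227 ± 8.69 nt for vehicle at day 5 (SD, n = 3 each), against group means of 307 to 312 nt elsewhere. Ribosomal protein genes held 3.43% of counts in VB6 day 7 and 3.54% in vehicle day 5 libraries, and 5.79 to 6.99% in the other groups. The fragment length therefore moves with VB6 at days 5 and 7, in opposite directions, and at those days treatment and fragment length cannot be told apart by the design. The VB6 effects at those days are given below on the deposited counts and again after a correction for GC content and transcript length, which could be fitted for 16772 genes including all 8 described here.

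The 8 genes lie on chromosomes 1, 3, 7, 9, 12 and 17, with Apoa1 and Apoa4 10229 bases apart on chromosome 9 and Apoc2 and Apoe 18167 bases apart on chromosome 7. They differ widely in length, which matters for libraries of unequal fragment length. The effective length, derived from the deposited counts and FPKM, was 201 nt for Apoa2, 327 nt for Apoc2, 576 nt for Apoe, 707 nt for Apom, 727 nt for Apoa1, 1510 nt for Apoa4, 3601 nt for Mttp and 6951 nt for Apob, where the median gene had 2033 nt. These are medians over libraries, and the values differed by group. For Apoa2 they were 190 to 197 nt in VB6 and 275 to 283 nt in vehicle day 5 libraries. For Apob they were 7292 to 7354 nt in VB6 and 6265 to 6676 nt in vehicle day 7 libraries. The longest annotated transcript had 13934 nt for Apob and 1408 nt for Apoe. The part of these lengths in the TPM levels was not tested. Apob was longer than 97.6% and Mttp longer than 80.6% of genes, while Apoa2 was longer than 1.28%. The 2 long genes were also poorer in G and C (43.5% for Apob and 45.9% for Mttp) than the 6 short ones (51.9 to 59.5%). Mttp overlaps Trmt10a, a gene on the opposite strand, over 1521 bases, and since no source states that strand was used in counting, reads in the overlap cannot be assigned with certainty. The same holds for Apoc2, which Gm44805 overlaps over 6358 bases on the same strand, and for Apoa4, which Gm47528 and Gm10680 overlap on the opposite strand. Over all libraries Gm44805 was given 2.77 counts, Gm47528 12.02 and Gm10680 13.58.

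The promoters of 4 of the genes are shown as examples. Apoa1, Apoa2 and Apoc2 are short genes that were higher with VB6 at day 5, as Apom, Apoe and Apoa4 also were. Apob is the long gene that was not called then but was higher at day 7. The sequences are from RefSeq on GRCm38.p6, run from 250 bases before to 50 bases after the annotated start, and read 5′ to 3′ on the strand of the gene. Capitals mark matches, on either strand, to 7 motifs. The motif AGGTCA is bound by nuclear receptors, and a core that HNF4 factors prefer reads CAAAGT in these searches. Factors of the FOXA family bind sequences such as TGTTTAC and, in the other form searched here, TGTTTGC instead. For HNF1 factors the letters searched were GTTAAT, for factors named after their binding site they were GATAA, and for the box that positions polymerase at many promoters they were TATAAA.
Apoa1 (chr9:46228380-46228679, plus strand): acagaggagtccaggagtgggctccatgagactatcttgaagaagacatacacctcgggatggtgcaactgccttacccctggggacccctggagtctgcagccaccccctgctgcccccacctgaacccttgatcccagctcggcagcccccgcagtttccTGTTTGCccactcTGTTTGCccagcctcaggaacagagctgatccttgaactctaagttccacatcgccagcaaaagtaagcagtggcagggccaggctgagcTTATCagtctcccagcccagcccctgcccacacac
Apoa2 (chr1:171224804-171225103, plus strand): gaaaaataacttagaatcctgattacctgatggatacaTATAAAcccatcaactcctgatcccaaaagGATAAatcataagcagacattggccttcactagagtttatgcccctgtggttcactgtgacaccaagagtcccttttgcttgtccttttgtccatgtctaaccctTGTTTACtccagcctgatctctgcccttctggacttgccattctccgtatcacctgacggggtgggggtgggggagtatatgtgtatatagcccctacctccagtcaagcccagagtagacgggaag
Apoc2 (chr7:19677892-19678191, minus strand): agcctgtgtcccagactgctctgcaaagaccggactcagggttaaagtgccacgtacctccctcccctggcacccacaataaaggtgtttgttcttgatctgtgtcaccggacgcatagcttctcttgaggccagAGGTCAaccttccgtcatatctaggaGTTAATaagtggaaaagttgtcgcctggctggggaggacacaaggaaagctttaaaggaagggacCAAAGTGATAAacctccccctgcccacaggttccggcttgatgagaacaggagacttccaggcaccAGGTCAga
Apob (chr12:7977427-7977726, plus strand): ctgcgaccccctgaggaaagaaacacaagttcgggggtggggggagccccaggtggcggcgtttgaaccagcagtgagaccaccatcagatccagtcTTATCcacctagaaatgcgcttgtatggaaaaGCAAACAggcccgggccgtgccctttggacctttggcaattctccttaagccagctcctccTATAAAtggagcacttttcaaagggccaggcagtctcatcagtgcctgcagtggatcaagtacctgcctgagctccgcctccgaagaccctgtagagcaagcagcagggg
Apoa1 carries TGTTTGC at 2 places, 88 and 75 bases before the start, and Apob carries it once on the other strand, while 5.07% of the 32851 RefSeq promoters of this length hold it. Apoa2 holds TGTTTAC, found in 3.65% of promoters, and Apoc2 holds the nuclear receptor motif at 2 places, the HNF1 motif, and the HNF4 core with the GATA motif directly after it. The GATA motif was in 4 of the 11 promoters listed for the 8 genes and in 25.4% of all promoters. The nuclear receptor motif was in 2 of 11 and in 16.3%. The HNF4 core was in 2 of 11 and in 14.4%, and the HNF1 motif in 2 of 11 and in 7.1%. TGTTTAC and the HNF1 motif were also found together in 1 window of Apoe. No match was found in the windows of Apom and Mttp or in 1 window of Apoe, and the Apoa4 window held 1 match. The 4 windows shown held 3 to 5 matches each, more than any window not shown. They therefore do not represent the genes that were higher at day 5. These are matches of letters in a window, and no binding was measured in these data.

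Over the time course 7 of the 8 genes started near the detection limit in ES cells or at a few TPM and ended at 34.5 to 565 TPM on average at day 7, while Apoe was abundant throughout. TPM (transcripts scaled by length and to one total in every library) is the scale on which levels of different genes are compared below, and fold changes and tests are on counts. Between day 7 and day 3, all 8 genes rose with VB6 and all 8 rose with vehicle, where 36.1% of all genes were called higher with VB6 and 34.3% with vehicle. Because each library is a bulk sample, more cells of a producing type and more RNA per cell cannot be told apart in any of these values.

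**Figure D1:**
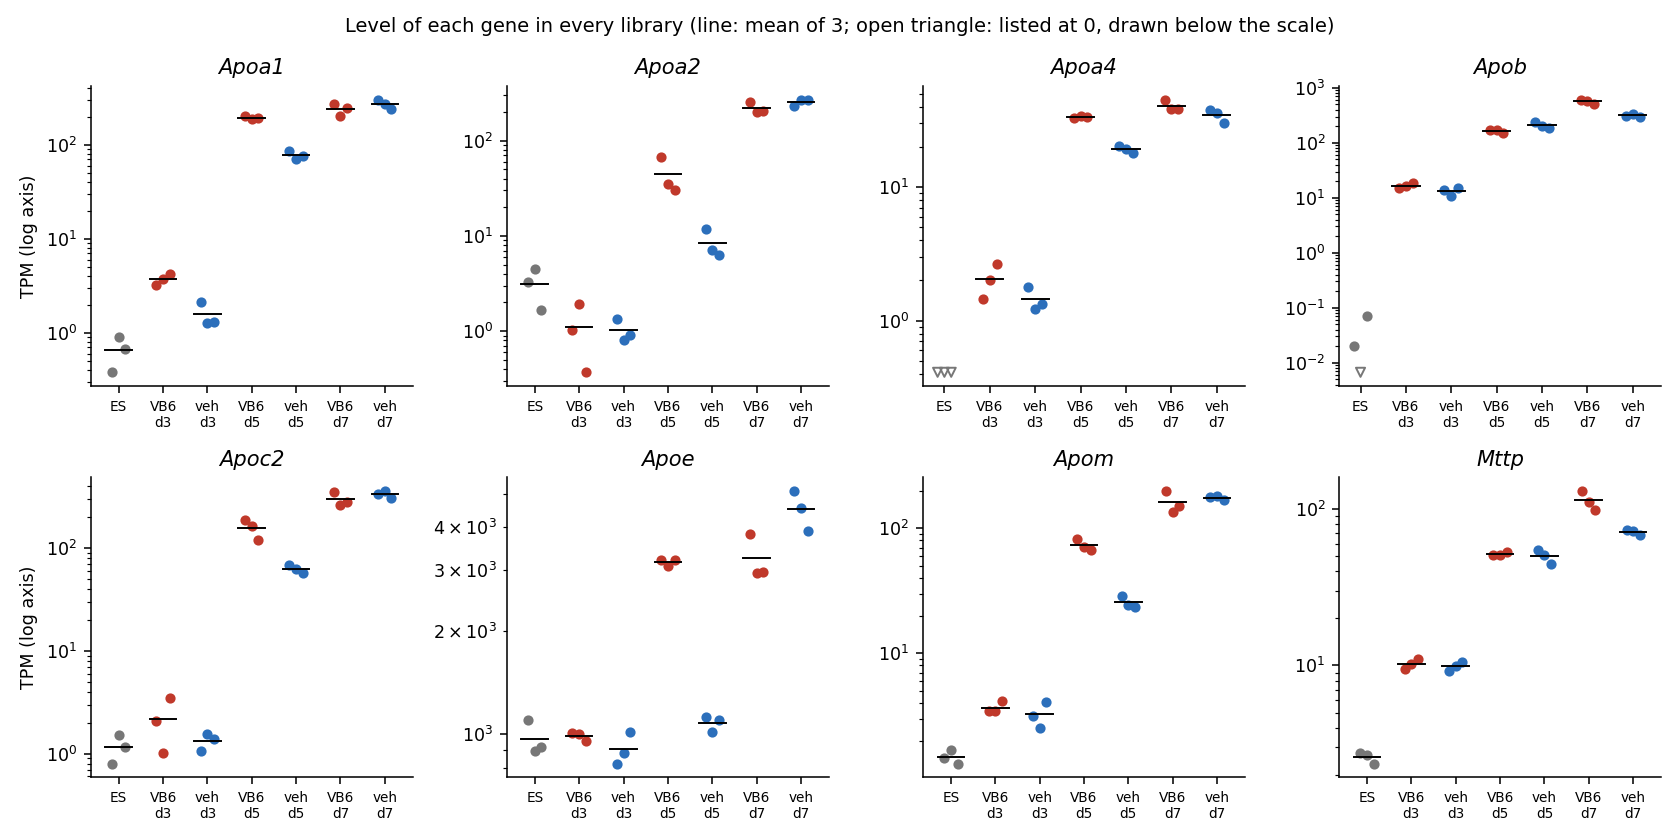
TPM of each gene (log axis, separate scale per gene) in each of the 21 libraries, with a line at the mean of 3 and an open triangle where a library is listed at 0. Apoe averaged 905 to 1077 TPM in ES, both day 3 groups and vehicle day 5, while Apob and Apoa4 were at or near 0 in ES cells.

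Apoa1 encodes the main protein of high-density lipoprotein. It was at 0.38, 0.91 and 0.68 TPM in ES libraries. With VB6 it stood at 3.23, 3.71 and 4.25 TPM at day 3, at 201, 189 and 195 TPM at day 5 and at 268, 204 and 244 TPM at day 7. With vehicle the values were 2.14, 1.28 and 1.30 TPM at day 3, 85.0, 70.7 and 76.2 TPM at day 5 and 303, 271 and 241 TPM at day 7. On this scale the VB6 libraries were all above the vehicle libraries at days 3 and 5, and the groups overlapped at day 7. The step to day 5 was the largest for this gene, with a log2 fold change over day 3 of 5.54 ± 0.14 (SE) with VB6 and 5.33 ± 0.18 with vehicle.

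Apoa2 encodes the other abundant protein of high-density lipoprotein. It had 1 to 7 counts per library at day 3 and 5 to 11 counts in ES cells, so its values up to then rest on few reads. Its level was 66.6, 35.5 and 30.7 TPM in VB6 day 5 libraries, against 11.9, 7.05 and 6.29 TPM in vehicle day 5 libraries, and the groups did not overlap although the VB6 libraries were spread widely. It reached 219 ± 28.5 TPM with VB6 and 255 ± 22.1 TPM with vehicle at day 7 (SD, n = 3 each), where the libraries overlapped. From day 5 to day 7 its log2 fold change was 2.26 ± 0.21 with VB6 and 4.69 ± 0.26 with vehicle.

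Apoa4, an apolipoprotein of intestinal particles in the adult, lies next to Apoa1 and had 0 counts in all 3 ES libraries. A count of 0 allows up to 3 counts, or 0.157 CPM, per library. Its day 3 level was at least 12.5-fold above that limit with VB6 and at least 9.95-fold above it with vehicle, taking the lowest day 3 library in each group. It was at 32.6, 33.9 and 33.4 TPM in VB6 day 5 libraries, against 20.3, 19.3 and 17.9 TPM in vehicle day 5 libraries. At day 7 it stood at 45.2, 38.4 and 38.5 TPM with VB6 and at 37.4, 35.6 and 30.4 TPM with vehicle, so the groups were close but did not overlap on the TPM scale.

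Apoc2 encodes the cofactor that lipoprotein lipase needs, and Apom the carrier of sphingosine 1-phosphate on high-density lipoprotein. Apoc2 was at 1.15 ± 0.36 TPM in ES cells, at 2.18 ± 1.23 TPM with VB6 and 1.34 ± 0.26 TPM with vehicle at day 3, and the 3 groups overlapped. It then stood at 156 ± 33.8 TPM with VB6 and 62.9 ± 5.32 TPM with vehicle at day 5, and at 299 ± 44.7 TPM with VB6 and 336 ± 26.7 TPM with vehicle at day 7 (SD, n = 3 each). Apom was at 1.49 ± 0.19 TPM in ES cells. Its day 5 level was 73.3 ± 8.07 TPM with VB6 and 25.6 ± 2.68 TPM with vehicle, and its day 7 level 162 ± 33.3 TPM with VB6 and 177 ± 6.86 TPM with vehicle. For both genes the day 5 groups were apart and the day 7 groups overlapped.

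Apoe encodes the apolipoprotein that binds receptors of the LDL receptor family, and it was the most abundant of the 8 in every group. In ES cells it ranged from 893.5 to 1098.5 TPM. It remained near that level at day 3, with 1008, 1004 and 958 TPM in VB6 libraries and 821, 879 and 1015 TPM in vehicle libraries. At day 5 it reached 3200, 3075 and 3203 TPM in VB6 libraries, against 1123, 1012 and 1096 TPM in vehicle libraries. At day 7 the values were 3815, 2945 and 2963 TPM with VB6 and 5098, 4551 and 3890 TPM with vehicle, so the vehicle libraries were above all VB6 libraries. The step from day 5 to day 7 gave a log2 fold change of 0.04 ± 0.09 (adjusted p = 0.751) with VB6 and of 2.01 ± 0.10 (adjusted p = 3.12e-14) with vehicle.

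Apob, the structural protein of the particles, had the largest fitted change from ES cells to day 3 among the 8 genes. It had 3, 0 and 3 counts in the ES libraries and 1099 to 2202 counts in the day 3 libraries, a log2 fold change over ES of 9.78 ± 0.24 with VB6 and of 9.43 ± 0.25 with vehicle, both of which depend on the few ES counts. Its level at day 3 was 15.0, 16.0 and 18.4 TPM with VB6 and 13.9, 10.7 and 15.2 TPM with vehicle, and the groups overlapped. At day 5 it was 170, 173 and 154 TPM with VB6 and 240, 205 and 182 TPM with vehicle, the only gene of the 8 with all VB6 libraries below all vehicle libraries at that day on the TPM scale. At day 7 it was 613, 571 and 511 TPM with VB6 and 314, 334 and 298 TPM with vehicle, with the VB6 libraries all above the vehicle libraries.

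Mttp, whose product lipidates apolipoprotein B, was already present in ES cells at 2.60 ± 0.21 TPM and rose at every later step in both arms. It had 10.2 ± 0.82 TPM with VB6 and 9.91 ± 0.63 TPM with vehicle at day 3, and 51.7 ± 1.27 TPM with VB6 and 50.1 ± 4.97 TPM with vehicle at day 5 (SD, n = 3 each), and these pairs of groups overlapped on the TPM scale. At day 7 it was at 130, 111 and 98.4 TPM with VB6 and at 73.4, 72.6 and 67.7 TPM with vehicle, without overlap. Over ES its day 3 log2 fold change was 2.37 ± 0.11 with VB6 and 2.24 ± 0.11 with vehicle.

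The steps differed in how many of the 8 genes rose, and the counts are set beside the share of all genes called higher. Consecutive steps share the libraries of the day between them. From ES to day 3, 5 genes rose with VB6 (33.2% of all genes) and 5 with vehicle (33.1%), namely Apoa1, Apoa4, Apob, Apom and Mttp in both arms. With VB6, Apoc2 passed with DESeq2 (1.25, adjusted p = 0.0133) and without the filter (0.0093), and Apoe passed without the filter (0.00702). After the correction 7 genes rose with VB6, where 11866 of 16772 genes were called and 48.3% of those were higher. With vehicle 6 rose, where 11846 were called and 48.7% of those were higher. Apoe then had 0.43 with VB6 (adjusted p = 2.89e-05) and 0.22 with vehicle (adjusted p = 0.0148), and Apoc2 had 1.405 with VB6 (adjusted p = 0.0495). The vehicle call of Apoa1 was lost without ES replicate 1 (adjusted p = 0.052) or without vehicle day 3 replicate 1 (adjusted p = 0.0606). From day 3 to day 5, all 8 rose with VB6 (29.9% of all genes) and 7 with vehicle (31.9%), Apoe having a log2 fold change of 0.15 ± 0.09 and an adjusted p of 0.172 there. That Apoe change passed without the filter on low counts (adjusted p = 0.0355), with only the compared libraries in the fit (0.028) and with limma on log2(TPM + 1) (0.0497), which called all 8 higher. From day 5 to day 7, 5 rose with VB6 (27.3% of all genes), namely Apoa2, Apob, Apoc2, Apom and Mttp, and all 8 rose with vehicle (35.2%). None of the 8 was called lower at any of these steps in the main edgeR fit, also at an unadjusted p under 0.05. Apoa2 was called lower at vehicle day 3 than in ES cells by edgeR without the filter on low counts (-1.455, adjusted p = 0.023). DESeq2 (-1.53, adjusted p = 0.0249) and limma on log2(TPM + 1) (-0.99, adjusted p = 0.0102) called it lower there as well. By limma it was lower at VB6 day 3 too (-0.98, adjusted p = 0.0104). The steps into and out of vehicle day 5 and the step into VB6 day 7 carry the change in fragment length. After the correction for GC content and length the step from day 5 to day 7 with VB6 had all 8 genes higher (28.1% of all genes), and Apoe had a log2 fold change of 1.03 ± 0.08 from day 3 to day 5 with vehicle.

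Together the 8 genes made up 980 ± 111 TPM in ES cells, 1030 ± 23.6 TPM with VB6 and 937 ± 101 TPM with vehicle at day 3, 3879 ± 101 TPM with VB6 and 1530 ± 92.2 TPM with vehicle at day 5, and 4879 ± 688 TPM with VB6 and 5973 ± 656 TPM with vehicle at day 7 (SD, n = 3 each). The direction at day 7 depended on the scale, since the summed CPM, which are not scaled by length, were 4633 ± 545 with VB6 and 4123 ± 285 with vehicle. Apoe alone accounted for 99.1 ± 0.27% of that sum in ES cells. Its share was 81.5 ± 1.47% with VB6 and 70.4 ± 2.12% with vehicle at day 5, and 66.4 ± 0.78% with VB6 and 75.4 ± 1.94% with vehicle at day 7. Apob held 4.27 ± 0.29% with VB6 and 13.7 ± 1.37% with vehicle at day 5, and 11.7 ± 1.02% with VB6 and 5.31 ± 0.47% with vehicle at day 7. The Apob share was thus larger with vehicle at day 5 and with VB6 at day 7, each time in the group of short fragments. The part of fragment length in these shares was not tested.

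**Figure D2:**
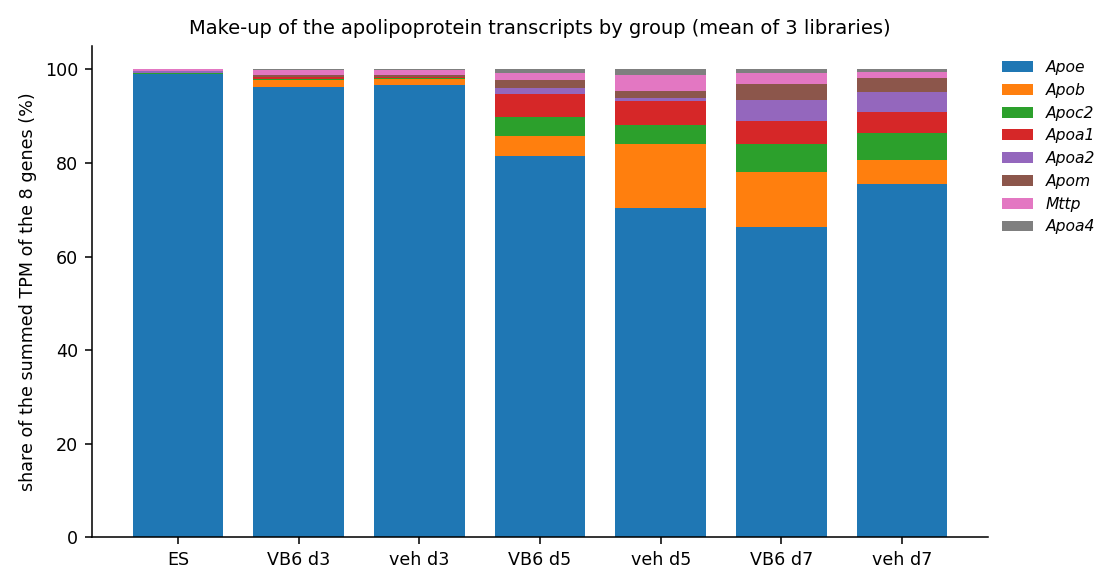
Share of each gene in the summed TPM of the 8 genes, as the mean of 3 libraries per group. Apoe fills nearly the whole bar in ES cells and at day 3, and the Apob part is widest in vehicle day 5 and VB6 day 7.

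At day 3 neither group had short fragments, and Apoa1 and Apob were higher with VB6 than with vehicle. Of the 8 genes, 2 were called higher, where 1.49% of all genes were, and 0 were called lower, where 2.77% of all genes were (0 of 8 also at an unadjusted p under 0.05, with DESeq2 and with limma). Apoa1 had a log2 fold change of 1.29 ± 0.27 (adjusted p = 0.0088), on 33 to 55 counts per VB6 library and 13 to 23 counts per vehicle library. Apob had a log2 fold change of 0.35 ± 0.10 (adjusted p = 0.0487). Both were higher after the correction too, where 2.85% of all genes were called higher. Apoa1 no longer passed without vehicle day 3 replicate 2 (adjusted p = 0.0714) or replicate 3 (adjusted p = 0.0587), and Apob no longer passed when any 1 of the 6 libraries was left out (adjusted p of 0.0553 to 0.277), with the replicate number as a block (0.0559) or with limma on log2 TPM (adjusted p = 0.184 with a pseudocount of 1). The other 6 genes had log2 fold changes of 0.13 to 0.77, none past the threshold in this fit. Apoe passed without the filter on low counts (0.20, adjusted p = 0.0142) and with only the compared libraries in the fit (0.20, adjusted p = 0.021). All 8 values were above 0 in the fit over all libraries, although that of Apoa2 turned to -0.10 with limma on TPM with a pseudocount of 0.1.

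At day 5, 7 of the 8 genes were called higher with VB6, where 31.2% of all genes were, and 0 were called lower, where 25.5% were (0 also at an unadjusted p under 0.05 and with DESeq2, 1 with limma on TPM). The 6 short apolipoprotein genes had the large values. Apoa2 had a log2 fold change of 2.19 ± 0.29 (adjusted p = 9.92e-07), Apom 1.68 ± 0.13 (2.89e-10), Apoe 1.55 ± 0.09 (1.15e-11), Apoa1 1.50 ± 0.10 (4.58e-11), Apoc2 1.30 ± 0.15 (1.37e-07) and Apoa4 1.04 ± 0.11 (7.01e-08). The 2 genes of particle assembly had smaller values, with 0.33 ± 0.08 for Mttp (adjusted p = 0.00114) and -0.09 ± 0.09 for Apob (adjusted p = 0.464). The median over the 8 genes was 1.40, against 0.05 over all genes tested. After the correction all 8 genes were higher (17.7% of all genes), but the values shrank to 1.58 for Apoa2, 0.99 for Apom, 0.68 for Apoa1, 0.53 for Apoe, 0.41 for Apoc2 and 0.35 for Apoa4, while Mttp came to 0.56 and Apob to 0.39 ± 0.08 (adjusted p = 0.000506). On the TPM scale the call for Mttp was lost (0.05 ± 0.09, adjusted p = 0.690) and Apob was called lower (-0.33 ± 0.11, adjusted p = 0.0213) with limma and a pseudocount of 1.

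At day 7 the 8 genes split. Apob was higher with VB6, with a log2 fold change of 0.73 ± 0.09 (adjusted p = 2.69e-06), and so was Mttp, with 0.40 ± 0.08 (adjusted p = 0.00031), making 2 of 8 where 18.6% of all genes were called higher. Apoe (-0.43 ± 0.09, adjusted p = 0.00077), Apoa1 (-0.39 ± 0.10, adjusted p = 0.00211) and Apom (-0.33 ± 0.11, adjusted p = 0.021) were lower, 3 of 8 where 17.9% of all genes were called lower. Apoc2 (-0.29 ± 0.14), Apoa2 (-0.24 ± 0.18) and Apoa4 (-0.01 ± 0.11) did not pass. The median over the 8 genes was -0.26, against 0.01 over all genes tested. The call for Apom was lost without VB6 day 7 replicate 2 (adjusted p = 0.164) or 3 (0.0904) or vehicle day 7 replicate 2 (0.0751), and Apoc2 passed as lower without VB6 day 7 replicate 1 (adjusted p = 0.0262), without the filter on low counts (-0.30, adjusted p = 0.00376) and with only the compared libraries in the fit (-0.31, adjusted p = 0.0334). On log2(TPM + 1) Apoa1 (-0.19, adjusted p = 0.304) and Apom (-0.14, adjusted p = 0.452) no longer passed. After the correction no gene was called lower, with 5 genes higher (13.8% of all genes), and all 8 values were above 0. The 5 were Apob (0.41 ± 0.08), Apoc2 (0.37 ± 0.11), Apoa4 (0.28 ± 0.10), Apoe (0.22 ± 0.08) and Mttp (0.20 ± 0.07), with adjusted p-values of 0.000448 to 0.0452. The values of Apoa1 and Apom were then 0.10 ± 0.08 and 0.10 ± 0.10, and neither passed.

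**Figure D3:**
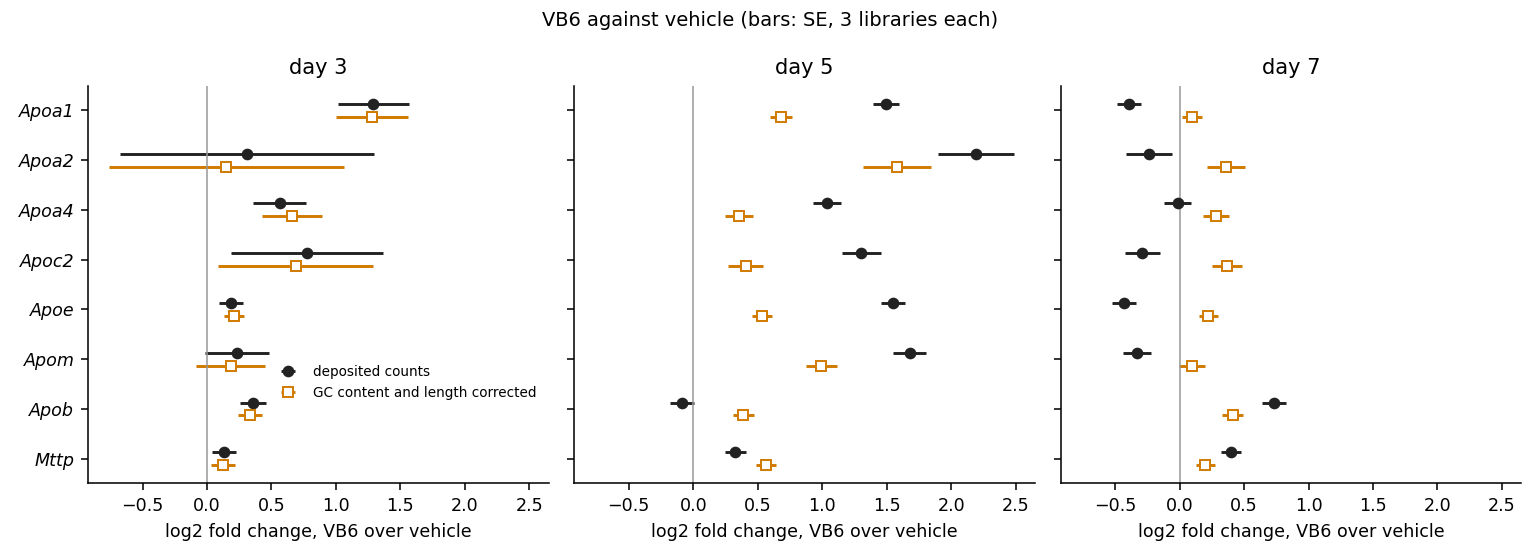
Log2 fold change of VB6 over vehicle for each gene at days 3, 5 and 7, with SE bars, on the deposited counts (filled circles) and after correction for GC content and length (open squares). At day 7 the 6 short genes lie at or below 0 on the deposited counts and above 0 after the correction, while Apob and Mttp lie above 0 both ways.

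At day 5 the shortest gene, Apoa2, had the largest log2 fold change and the longest, Apob, the smallest. Between them the order did not follow length throughout. Apoc2 (327 nt) had a smaller value than Apoe (576 nt), Apom (707 nt) and Apoa1 (727 nt). At day 7 Apob had the largest value and Mttp the next, while the 5 genes of 727 nt or less had values of -0.43 to -0.24, with Apoa2 the highest of these 5. The fragments were shorter in vehicle libraries at day 5 and in VB6 libraries at day 7. For all genes, too, the split of calls differed between edgeR on counts and limma on log2(TPM + 1), which differ in both scale and tool. Of the genes called at day 5, 55.1% were higher with VB6 in edgeR and 31.1% in limma, and at day 7 the shares were 51.1% and 82.9%. The median of all genes shifted by -0.13 at day 5 and 0.19 at day 7 on that TPM scale (log2).

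**Figure D4:**
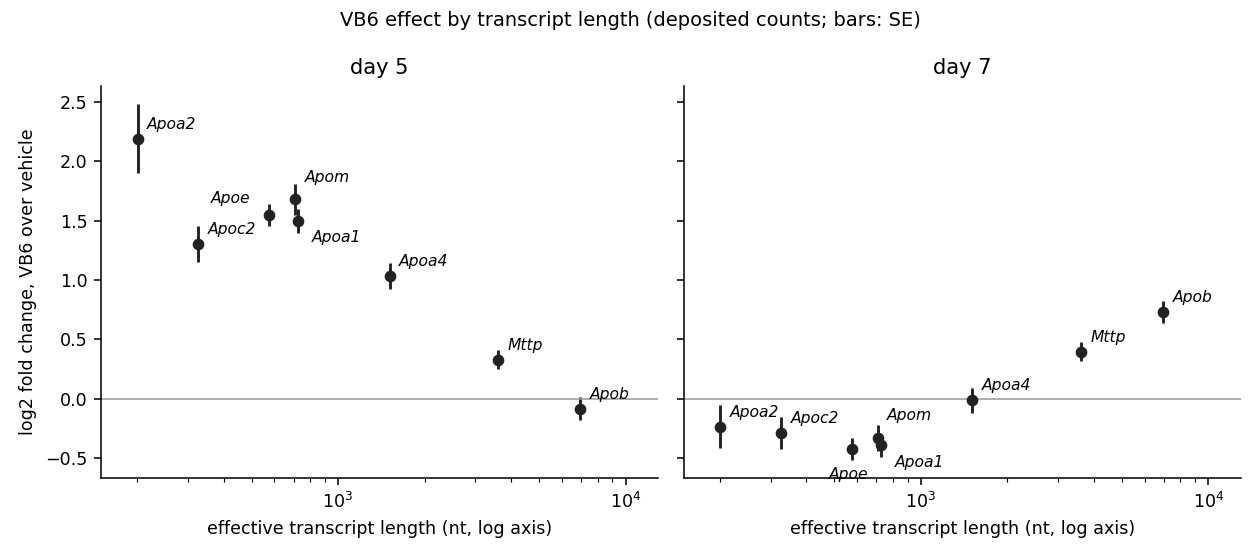
Log2 fold change of VB6 over vehicle on the deposited counts against effective transcript length (log axis), with SE bars, at days 5 and 7. At day 5 the shortest gene, Apoa2, is highest at 2.19 and the longest, Apob, lowest at -0.09, while Apoc2 lies below the longer Apoe, Apom and Apoa1. At day 7 Mttp and Apob, the 2 longest genes, have the highest values.

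The mean over the 3 days holds each of the 2 short-fragment groups once on either side, but the gaps were unequal. Fragments averaged 227 nt with vehicle and 312 nt with VB6 at day 5, and 266 nt with VB6 and 308 nt with vehicle at day 7. The 2 gaps need not cancel, and the part of fragment length in the mean was not tested. On this mean 6 of the 8 genes were higher with VB6, where 6.58% of all genes were, and 0 were lower, where 5.16% were. All 8 values were above 0, and DESeq2 and limma on log2(TPM + 1) each called all 8 higher. Apoa1 had a mean log2 fold change of 0.80 ± 0.10 (adjusted p = 3.95e-05), Apoa4 and Apom each 0.53 (SE 0.09 and 0.10), Apoe 0.44 ± 0.05 (adjusted p = 3.35e-05), Apob 0.33 ± 0.06 (adjusted p = 0.000611) and Mttp 0.28 ± 0.05 (adjusted p = 0.000619). Apoa2 (0.75 ± 0.36, adjusted p = 0.184) and Apoc2 (0.60 ± 0.21, adjusted p = 0.0636) did not pass, and both rest on few counts at day 3. Apoc2 passed without VB6 day 3 replicate 2 (adjusted p = 0.0313) or VB6 day 5 replicate 3 (0.0171), and with the replicate number as a block (0.0417). Without the filter on low counts both Apoa2 (0.0264) and Apoc2 (0.000397) passed. The same 6 genes passed after the correction, where 5.24% of all genes were called higher, with values of 0.30 to 0.68. The Apob call was lost with limma on log2(TPM + 0.1), where its adjusted p was 0.0753. Of all genes called on this mean, 56.0% were higher with edgeR on counts and 39.4% with limma on log2(TPM + 1). For genes with opposite values at days 5 and 7, the mean does not describe either day.

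Whether the VB6 effect differed between the 3 days was tested directly. On the deposited counts 7 of the 8 genes passed, all but Mttp (adjusted p = 0.142), where 60.0% of all genes did. Mttp passed without VB6 day 7 replicate 3 (adjusted p = 0.0232) and on both TPM scales (0.000644 and 0.00105), and Apoa4 did not pass on log2(TPM + 0.1) (0.132). The VB6 effect at day 7 minus that at day 5 was called for 1 gene as higher (Apob, 0.82 ± 0.13) and for 6 as lower, where 27.0% of all genes were called higher and 30.8% lower. The 6 were Apoa2 (-2.43), Apom (-2.01), Apoe (-1.98), Apoa1 (-1.89), Apoc2 (-1.59) and Apoa4 (-1.05). After the correction 5 genes passed the test over the 3 days, where 45.1% of all genes did. Apoa1 (adjusted p = 0.000131), Apom (0.000178), Mttp (0.00496), Apoa2 (0.00745) and Apoe (0.0264) were those 5, and Apoa4 (0.452), Apob (0.847) and Apoc2 (0.897) were not. For Apob the corrected VB6 effect was 0.33 ± 0.09 at day 3, 0.39 ± 0.08 at day 5 and 0.41 ± 0.08 at day 7. Its day 3 value compares groups without short fragments. On the deposited counts the day 3 call was lost when any single library of either group was left out, and with the replicate block. The part of fragment length in the differences between days was not tested.

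Other genes of the pathway were read from 5 lists, whose counts of calls are to be read against all genes. At day 5, 31.2% of all genes were called higher with VB6 and 25.5% lower, or 17.7% and 20.6% after the correction. At day 7 these shares were 18.6% higher and 17.9% lower, or 13.8% and 13.4% after the correction. These are shares in edgeR, and those of limma on log2(TPM + 1) differed. Limma called 9706 of 18901 genes at day 5, of which 31.1% were higher with VB6. At day 7 it called 8184 of 18901, of which 82.9% were higher. The limma counts of each list below are to be read against these. Between day 7 and day 3, 36.1% of all genes were higher and 34.8% lower with VB6, and 34.3% were higher and 33.1% lower with vehicle.

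The first list held 16 other apolipoprotein genes, of which 7 passed the filter. With VB6 at day 3 none of the 7 was called in edgeR, DESeq2 or limma, and 1 was lower at an unadjusted p under 0.05 in edgeR. At day 5, 3 were higher and 1 lower, namely Clu (clusterin, 0.94 ± 0.09), Apoc1 (an apolipoprotein that neighbours Apoe in the genome, 1.63 ± 0.19) and Apobr (a receptor for apolipoprotein B, 1.04 ± 0.21) against Apoo (a protein of the mitochondrial inner membrane, -0.28 ± 0.11). After the correction 4 were higher and 1 lower at day 5, and the values were 0.36 ± 0.07 for Clu, 0.87 ± 0.16 for Apoc1, 0.57 ± 0.21 for Apobr and -0.36 ± 0.09 for Apoo, each past the threshold. Apoc1 was lower with VB6 at day 7 (-0.99 ± 0.17, adjusted p = 7.31e-05), at 8.02 ± 1.36 CPM with VB6 and 15.9 ± 2.08 CPM with vehicle, and it was the only one of the 7 called then by edgeR, where limma on log2(TPM + 1) called 2 lower. After the correction that value was -0.27 ± 0.14 and no longer passed, and Clu was called higher (0.21 ± 0.06, adjusted p = 0.0146). Over time Clu rose from day 3 to day 7 in both arms, by 2.35 ± 0.10 with VB6 and 2.24 ± 0.10 with vehicle on the log2 scale.

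The list for particle assembly and export held 20 genes, all of them tested, and covers chaperones, enzymes that make neutral lipid and the COPII coat that carries particles out of the endoplasmic reticulum. With VB6 edgeR called 0 at day 3 (2 lower at an unadjusted p under 0.05, 1 lower with DESeq2 and 0 with limma), 7 higher and 7 lower at day 5, and 8 higher and 1 lower at day 7. On log2(TPM + 1) the counts were 3 higher and 12 lower at day 5 and 13 higher and 0 lower at day 7. The calls of all genes leaned the same way on that scale, to lower at day 5 and to higher at day 7. After the correction edgeR called 5 higher and 5 lower at day 5, and 9 higher and 2 lower at day 7. The 7 higher of 20 at day 5 are a share near the 31.2% of all genes, and the corrected 5 higher and 5 lower are near the 17.7% and 20.6%. At day 5 Plin2, a lipid droplet protein (0.71 ± 0.07), and Soat2, which esterifies cholesterol (0.96 ± 0.11), were higher, while Soat1, its relative (-0.56 ± 0.06), and Sec24a, a COPII subunit (-0.63 ± 0.07), were lower. All 4 passed after the correction with smaller values, 0.36 for Plin2, 0.46 for Soat2, -0.14 for Soat1 and -0.18 for Sec24a. At day 7 Mia2, a receptor for lipoprotein export (0.37 ± 0.05), Sec23a (0.53 ± 0.07) and Sec24a (0.53 ± 0.07) of the COPII coat and the folding enzyme Pdia3 (0.35 ± 0.05) were higher. After the correction these 4 day 7 values were 0.23 to 0.25 and each passed. From day 3 to day 7, 17 of the 20 rose and 1 fell with VB6, and 16 rose and 1 fell with vehicle, among them Surf4, a cargo receptor for lipoproteins, by 1.31 ± 0.05 with VB6 and 1.26 ± 0.05 with vehicle.

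Of 16 genes for lipoprotein receptors and uptake, 14 were tested. With VB6 edgeR called 0 at day 3 (1 higher and 3 lower at an unadjusted p under 0.05, 1 higher and 1 lower with DESeq2, 0 with limma), 9 higher and 1 lower at day 5, and 3 higher and 3 lower at day 7. On log2(TPM + 1) these were 4 higher and 4 lower at day 5 and 6 higher and 1 lower at day 7. After the correction edgeR called 6 higher and 0 lower at day 5 (0 lower also at an unadjusted p under 0.05), and 3 higher and 2 lower at day 7. The 3 higher and 3 lower of 14 on counts at day 7 are near the shares of all genes, 18.6% and 17.9%. At day 5 Amn (amnionless, the membrane anchor of cubilin) had 107 ± 3.83 CPM with VB6 and 33.1 ± 0.72 CPM with vehicle, a log2 fold change of 1.68 ± 0.11, and Lrpap1, a chaperone of LDL receptor relatives, had 0.92 ± 0.08. After the correction these were 0.68 ± 0.08 for Amn and 0.58 ± 0.06 for Lrpap1, and both passed. At day 7 Cubn (cubilin, a receptor for apolipoprotein A1) was higher with VB6 at 0.64 ± 0.10 and its adaptor Dab2 at 0.43 ± 0.07, while Amn was lower at -0.66 ± 0.11 and Sdc1 (a heparan sulfate proteoglycan) at -0.36 ± 0.08. Cubilin and amnionless act as a complex, and their transcripts gave opposite signs at day 7. After the correction Cubn was 0.36 ± 0.08 (adjusted p = 0.00184), Dab2 0.27 ± 0.06, Sdc1 -0.22 ± 0.05 and Amn -0.11 ± 0.08 (adjusted p = 0.297). From day 3 to day 7, 13 of the 14 rose with VB6 and 12 with vehicle, and none fell in either arm in edgeR (also at an unadjusted p under 0.05), DESeq2 or limma, while after the correction 2 fell with VB6 and 1 with vehicle.

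Among 15 genes of lipases, lipid transfer and efflux, 10 were tested. From day 3 to day 7, 3 rose and 5 fell with VB6, and 4 rose and 5 fell with vehicle. Abcg1, a cholesterol exporter, fell by 3.21 ± 0.12 on the log2 scale with VB6 and by 2.95 ± 0.12 with vehicle, Angptl4, an inhibitor of lipoprotein lipase, fell by 3.53 ± 0.19 with VB6 and by 3.01 ± 0.18 with vehicle, and Apobec1, the enzyme that edits Apob transcripts, fell by 2.06 ± 0.17 with VB6 and by 1.87 ± 0.18 with vehicle. Apobec1 was at 1.33 ± 0.40 CPM with VB6 and 1.36 ± 0.14 CPM with vehicle at day 7. With VB6 against vehicle edgeR called 0 at day 3 (1 higher at an unadjusted p under 0.05 and with DESeq2, 0 with limma), 4 higher and 1 lower at day 5, and 1 higher and 2 lower at day 7. On log2(TPM + 1) these were 2 higher and 2 lower at day 5 and 3 higher and 1 lower at day 7. After the correction edgeR called 1 higher and 1 lower at day 5, and 1 higher and 0 lower at day 7 (1 lower at an unadjusted p under 0.05). Abca1, which hands cholesterol to apolipoprotein A1, was the gene that was higher at day 7 (0.62 ± 0.13, adjusted p = 0.000824, and 0.37 ± 0.13, adjusted p = 0.0322, after the correction).

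Of 24 transcription factors known to act on apolipoprotein genes in liver or intestine, 21 were tested. With VB6 edgeR called 0 at day 3 (4 lower at an unadjusted p under 0.05, 1 lower with DESeq2, 0 with limma), 15 higher and 0 lower at day 5 (0 lower also at an unadjusted p under 0.05, with DESeq2 and with limma), and 0 higher and 3 lower at day 7 (2 higher at an unadjusted p under 0.05, 0 with DESeq2). On log2(TPM + 1) these were 8 higher at day 5 and 8 higher and 2 lower at day 7. The 15 higher of 21 at day 5 stand beside 31.2% of all genes, and the 3 lower at day 7 beside 17.9%. At day 5 Hnf4a had 68.5 ± 3.38 CPM with VB6 and 44.1 ± 3.28 CPM with vehicle (log2 fold change 0.63 ± 0.08), Foxa2 1.07 ± 0.12, Cebpb 1.91 ± 0.20 and Nr1h2 0.97 ± 0.10. After the correction 7 of the 20 that could be fitted were higher at day 5 beside 17.7% of all genes, with Hnf4a at 0.31 ± 0.07, Foxa2 at 0.44 ± 0.11 and Cebpb at 0.64 ± 0.15, and Nr1h2 no longer passed (0.08 ± 0.05). Lower at day 7 were Cebpb (-1.24 ± 0.18), Nr1h2 (-0.51 ± 0.10) and Cebpa (-1.47 ± 0.31). The corrected day 7 counts were 3 higher and 2 lower, with Cebpb at -0.44 ± 0.13 and Cebpa at -1.06 ± 0.32 still past the threshold and Nr1h2 at -0.08 ± 0.05 not. From day 3 to day 7, 14 rose in each arm, including Hnf4a by 2.03 ± 0.08 with VB6 and 2.10 ± 0.08 with vehicle, Gata4 by 2.02 ± 0.09 with VB6 and 1.90 ± 0.09 with vehicle, and Nr2f2, which stood at 54.2 ± 9.34 CPM with VB6 and 46.1 ± 4.88 CPM with vehicle at day 7 and near 0 at day 3.

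Marker genes were read to see which cells could hold these transcripts. The summed level of 8 visceral endoderm markers was 67.6 CPM in ES cells, 748 CPM with VB6 and 707 CPM with vehicle at day 3, 2356 CPM with VB6 and 2100 CPM with vehicle at day 5, and 4417 CPM with VB6 and 3501 CPM with vehicle at day 7, with all 8 at 1 CPM or more from day 5. At day 5 individual libraries ranged from 2177 to 2510 CPM with VB6 and from 1902 to 2381 CPM with vehicle, so the groups overlapped. Cubn (899 CPM with VB6 and 994 CPM with vehicle) and Dab2 (718 CPM with VB6 and 778 CPM with vehicle) averaged lower with VB6 then. The other markers of this list averaged higher with VB6 at day 5. Individual libraries ranged from 3934 to 4963 CPM with VB6 and from 3401 to 3645 CPM with vehicle at day 7. The larger day 7 sum with VB6 rests on Afp (1439 CPM with VB6 and 1080 CPM with vehicle), Cubn (1207 CPM with VB6 and 772 CPM with vehicle) and Dab2 (981 CPM with VB6 and 729 CPM with vehicle). For 4 of the 8 the mean was smaller with VB6, namely Ttr (169 CPM with VB6 and 195 CPM with vehicle), Rbp4 (400 CPM with VB6 and 439 CPM with vehicle), Amn (72.3 CPM with VB6 and 114 CPM with vehicle) and Rhox5 (84.0 CPM with VB6 and 108 CPM with vehicle). The summed level of 6 definitive endoderm markers was 61.2 CPM with VB6 and 27.8 CPM with vehicle at day 5. At day 7 it was 71.5 CPM with VB6 and 84.1 CPM with vehicle. Most of these sums was Sox17 and Foxa2. The others did not rise alike, as Hhex averaged 11.2 CPM in ES cells, and 5.00 CPM with VB6 and 5.29 CPM with vehicle at day 7. Cxcr4, Cer1 and Gsc averaged at most 3.66 CPM in any group. The summed level of 6 markers of intestinal epithelium was 30.2 CPM with VB6 and 20.3 CPM with vehicle at day 5. At day 7 it was 45.9 CPM with VB6 and 44.0 CPM with vehicle, against 22.85 CPM in ES cells, and Alpi was at 0 in all groups. Most of the day 7 sum was Vil1 (28.5 CPM with VB6 and 28.6 CPM with vehicle). Cdx2 averaged 0.12 CPM in ES cells, and 5.70 CPM with VB6 and 7.52 CPM with vehicle at day 7. Muc2 averaged 16.6 CPM in ES cells, and 9.74 CPM with VB6 and 6.62 CPM with vehicle at day 7. Fabp2 averaged under 1 CPM in every group. Of 6 hepatocyte markers in the tables, none averaged 1 CPM or more in any group, and Alb (albumin) averaged at most 0.0402 CPM. Macrophages are a source of Apoe in the adult. Their 7 markers summed to 9.21 to 41.6 CPM over the groups. Most of that sum was Cd68, at 25.5 CPM in ES cells, and 34.3 CPM with VB6 and 32.0 CPM with vehicle at day 7. Csf1r averaged 0.17 CPM in ES cells, and 6.43 CPM with VB6 and 4.70 CPM with vehicle at day 7. Spi1 and Cd14 averaged under 1 CPM in every group. Tyrobp was at 0 in all 21 libraries, and Ptprc and Adgre1 averaged at most 0.0367 CPM. The summed level of 7 fibroblast markers was 554 CPM with VB6 and 540 CPM with vehicle at day 7, against 62.7 CPM in ES cells, and most of the day 7 sum was Col1a2 (356 CPM with VB6 and 319 CPM with vehicle) and Col1a1 (158 CPM with VB6 and 188 CPM with vehicle). Thy1 averaged 3.05 CPM with VB6 and 4.25 CPM with vehicle at day 7, against 19.0 CPM in ES cells. Pdgfrb averaged 27.3 CPM with VB6 and 23.5 CPM with vehicle at day 7, against 36.9 CPM in ES cells, and Dcn and Lum averaged under 1 CPM at day 7 in both arms. These sums are on counts without the correction for GC content and length. The part of these cell types in the levels of the 8 genes was not tested.

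Across the 21 libraries the closest profiles among 13741 other protein-coding genes were found by Pearson r of log2 CPM, as a description over points that share day, treatment and fragment length. For Apob they were Dab2 (r = 0.996), Rcbtb2 and Clic6 (0.994 each), and for Mttp they were Slc39a8 (0.996), Castor2 and Rnd3 (0.995 each). For Apoa1 they were Spink1 (0.993), Tagln (0.992) and Tpm1 (0.991), and for Apom Krt8 (0.995), Hkdc1 and Spp2 (0.993 each). Apoc2 was closest to Tpm1 (0.992), Slc13a4 and Anxa3 (0.990 each), and Apoa4 to Patj (0.996), Fgfr2 (0.996) and Thsd7a (0.992). Apoa2 and Apoe gave lower values, with Pakap (0.987), Gpx3 (0.986) and Synj2 (0.984) for Apoa2 and Stxbp2 (0.989), Bex3 and Tmbim6 (0.987 each) for Apoe. Ranking by Spearman's rho instead kept 1 of the 3 genes for Mttp (Castor2) and 0 of 3 for each of the others. Among the 8 genes themselves, r ran from 0.631 between Apob and Apoe to 0.988 between Apoa4 and Mttp.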

How the data were processed

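RNA was sequenced from 21 libraries in 7 groups of 3, grouped by the treatment and day in the labels. The authors deposited expected counts, TPM and FPKM per gene, with mm10 as the genome build per the submitters' processing notes. Neither the aligner nor the counter is given in the sources used here. The deposited expected counts hold 26.9 to 30.5% values that are not whole among those above 0, and they were rounded, which changed the totals by 0.0002%. FPKM deposited by the authors served only to derive effective lengths, and deposited TPM served for levels.

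Counts were fitted in edgeR 4.0.16 (R 4.3.3) by the quasi-likelihood test over all 21 libraries with TMM scaling, after filterByExpr had left 18901 genes. P-values were adjusted by Benjamini-Hochberg over all of them, with a call at an adjusted p under 0.05, and the SE is the log2 fold change over the root of F. CPM are scaled by TMM. The correction for GC content and length used splines of 5 degrees of freedom per library on 16772 genes (88.7%). Alternatives were DESeq2 1.42.0, its size factors, other filters, a replicate block, limma 3.58.1 on log2 TPM with a pseudocount of 1 or 0.1, the correction and leaving out libraries. The main edgeR fit was tested on simulated counts for VB6 against vehicle at day 5, with no bias by GC content, length or fragment length put in. The correction and the other comparisons were not tested on simulated counts. Libraries of a group differed by more than sampling noise, with a chi-square per gene of 2.16 to 14.99.

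Same-numbered libraries deviated together in every pair for VB6 day 7 against VB6 day 5 (correlations of 0.117, 0.147 and 0.261 over 9892 genes), and a replicate block changed no call there. The labels do not say that a number marks a shared culture. The 8 genes and the lists were chosen with earlier results of these data known. Genes named from a list are up to 4 with the smallest p in a described comparison, and the others named are the 3 with the highest Pearson r for each of the 8. The library text also speaks of small RNA, which does not match gene-level tables and was not used.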

Additional observations from a re-analysis of the deposited data

Results flagged for a closer look

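The VB6 effect differed between days 3, 5 and 7 for 7 of the 8 genes in the edgeR interaction test, where 60.0% of all genes passed. The adjusted p was 7.27e-11 for Apoe, 3.04e-10 for Apoa1, 3.22e-09 for Apom, 1.94e-06 for Apoc2, 9.57e-06 for Apoa2, 1.78e-05 for Apoa4 and 5.69e-05 for Apob. The libraries with short fragments were vehicle at day 5 and VB6 at day 7, so the day of treatment and the fragment length cannot be told apart in this test. After the correction for GC content and length, Apoe, Apoa1, Apom and Apoa2 passed (adjusted p of 0.000131 to 0.0264), and Apoc2, Apoa4 and Apob did not (0.452 to 0.897).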

How the results depend on the processing

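At day 3 the count of genes higher with VB6 was 2, and 1 with the replicate block and with limma on TPM at either pseudocount, and 0 to 1 when a library was left out. At day 5, 1 gene was lower with limma on log2(TPM + 1). At day 7, 1 was lower on either TPM scale, and the correction for GC content and length, with or without the replicate block, gave 5 higher and 0 lower. Lower than in ES cells was 1 gene at vehicle day 3 with DESeq2, without a filter and on either TPM scale, and 1 at VB6 day 3 on either TPM scale. From day 5 to day 7 with VB6, 8 were higher after the correction, with or without the block.

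Some log2 values changed sign. Day 3 Apoa2 was -0.10 with a pseudocount of 0.1, and -0.47 to 0.78 with a library left out. Day 5 Apob was 0.39 after the correction, with or without the block, and -0.16 to 0.0012 with a library left out. Day 7 Apoa4 was 0.0018 under the stricter filter, 0.24 on either TPM scale, 0.28 after the correction with or without the block, and -0.10 to 0.030 with a library left out. The corrected day 7 values without and with the replicate block were 0.096 and 0.094 for Apoa1, 0.36 and 0.34 for Apoa2, 0.37 and 0.36 for Apoc2, 0.22 and 0.22 for Apoe, and 0.097 and 0.083 for Apom. Vehicle day 3 against ES, Apoe was 0.22 and 0.23 with the correction, and -0.12 to 0.018 with a library left out. VB6 day 7 against day 5, Apoa4 was 0.0057 with DESeq2 and 0.0056 with its size factors, 0.28 and 0.29 on the TPM scales, 0.27 after the correction with or without the block, and -0.10 to 0.037 with a library left out, where Apoa1 was -0.060 to 0.15 and Apoe -0.10 to 0.11. The cause was not tested.

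The replicate block ended the day 3 Apob call (adjusted p = 0.0559) and brought the mean Apoc2 value past the threshold (0.0417), and it changed no other call. Of 104 results, 102 kept direction and call under it, 86 under the correction and 99 with DESeq2. Without the vehicle day 5 and VB6 day 7 libraries, an alternative chosen after seeing the data, 40 of 40 did, but these come from the 5 comparisons that involve neither group and bear on no VB6 effect at day 5 or 7. With limma on log2(TPM + 1) the share of called genes that were higher was 71.3% against 48.9% with edgeR on counts for vehicle day 5 over day 3, 37.9% against 53.1% for vehicle day 7 over day 5, 67.5% against 53.1% for VB6 day 5 over day 3, 75.7% against 50.01% for VB6 day 7 over day 5, and 72.9% against 50.9% for VB6 day 7 over day 3. For VB6 day 3 over ES it was 37.3% against 50.8%, and for VB6 over vehicle at day 3 it was 20.6% against 34.9%. Apoa2 and Apoc2 have few counts up to day 3, so small differences were not detectable there.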
